A study of Bos taurus with 28 samples.

Results

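The genes described here make fatty acids from acetyl units, lengthen and desaturate them, and supply the NADPH that the synthesis consumes, measured in udder tissue of dairy cows of 3 DGAT1 genotypes. The members were 10 named genes, ACLY, AACS, ACACA, FASN, ELOVL5, SCD, FADS1, FADS2, IDH1 and ME1, and all probe sets that the platform annotation assigns to exactly 1 of these symbols were taken. Of the 10 genes, 9 had such a probe set and FADS1 had none, which gave 14 probe sets among the 24016 tested on the array. Where a gene had several probe sets they are lettered in the order of their identifiers, as AACS A and B, ACACA A and B, IDH1 A, B and C, and ME1 A and B. There were 4 KK cows (lysine on both DGAT1 alleles at the polymorphic residue), 13 KA cows (lysine on 1 allele) and 11 AA cows (alanine on both alleles). All 28 were Holstein-Friesian cows in mid-lactation on the control diet. The tissue was a surgical biopsy of the mammary gland, with 1 Affymetrix Bovine Genome Array per cow. Genotype was a property of each animal and was not assigned.

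Ruminant mammary epithelium builds most short and medium chain milk fatty acids itself, from acetate and beta-hydroxybutyrate taken from the blood and not from glucose. Acetyl-CoA is carboxylated to malonyl-CoA, fatty acid synthase adds malonyl units until the chain is released, and stearoyl-CoA desaturase places a double bond in chains made in the gland or taken up from blood. NADPH for each added unit comes in ruminants largely from cytosolic isocitrate dehydrogenase and from the pentose phosphate pathway, with a smaller part from malic enzyme. DGAT1, whose genotype defines the groups, joins the last fatty acid to diacylglycerol to form triacylglycerol, downstream of all of these enzymes.

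Each value is a log2 difference from a baseline of its own probe set, so cows can be compared within a probe set and genes cannot be ranked by level. A lower bound on the signal could still be read from the rounding of the values. FASN, SCD, IDH1 A and IDH1 C lay at or above 8 on the log2 scale of the array in every cow, as did 1484 of the 24016 probe sets. ACLY, ELOVL5, both AACS probe sets, ACACA B, ME1 B and IDH1 B lay at or above 4. For FADS2, ACACA A and ME1 A only a bound of 2 could be given.

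Over the whole array AA 2 and AA 9 were unlike all others, with an SD over probe sets of 0.86 and 0.78, against 0.21 to 0.35 in the other 26. A bound of at least 4 held for 7 of 7 milk protein genes measured, and for all but 1 of 9 luminal epithelial genes. It held as well for all 11 T and natural killer cell genes and all 9 myoepithelial genes measured. Of the 24016 probe sets tested, 9627 fell short of it and the rest reached it, and each gene's probe set was chosen by its class of bound. The bound of 4 therefore cannot tell which tissue was sampled. The 7 milk protein genes also reached the bound of 8, as did 1484 of all probe sets tested. Numbers in the array titles also divided the groups unevenly: numbers 29 to 42 held 4 KK, 2 KA and 8 AA arrays, and numbers 43 to 56 held 0 KK, 11 KA and 3 AA arrays. The labels do not say what these numbers mark. Differences are given with and without AA 2 and AA 9, and several of them within the number ranges.

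The largest differences between cows in these genes lay in AA 2 and AA 9. With 1 probe set for each gene, these were the lowest 2 of the 28 arrays in 7 of the 9 genes. In the other 2 genes, ACLY and ELOVL5, they were the highest 2. ME1 counted among the 7 through ME1 B, whereas in ME1 A both arrays were highest, at 2.45 and 1.71. Of the 14 probe sets, 10 had AA 2 and AA 9 lowest and 3 had them highest. Over all 24016 probe sets, 17.7% had both arrays below the range of the other 26 and 18.4% had both above it. The exception among the 14 was IDH1 B, at -0.15 in AA 2 and 0.27 in AA 9.

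FASN, the synthase that assembles the chain, was at -3.43 in AA 2 and -1.80 in AA 9, while the other 26 cows lay between -0.36 and 0.51. SCD, the desaturase, was at -1.84 in AA 2 and -3.44 in AA 9, with the remaining cows between -0.32 and 0.22, so the cow with the lower FASN was not the cow with the lower SCD. ACACA, the acetyl-CoA carboxylase that commits acetyl units to synthesis, was at -1.52 and -1.40 in ACACA B and at -2.97 and -1.81 in ACACA A. ELOVL5, which lengthens polyunsaturated chains, was at 2.19 in AA 2 and 1.38 in AA 9, where no other cow exceeded 1.06. ACLY, which splits citrate into acetyl-CoA, was at 1.06 and 0.84, against -0.47 to 0.75. The enzymes of chain assembly and of stearoyl-CoA desaturation were thus far below the other cows in these 2 biopsies, and ELOVL5 and ACLY were above them.

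Several marker lists of other tissue components also lay outside the range of the other arrays in AA 2 and AA 9, and others did not. Milk fat globule genes, 8 of 8 measured with both arrays lowest, averaged -3.13 and -3.89, against -0.51 to 0.29, led by CIDEA, BTN1A1 and FABP3. Milk proteins, 6 of 7 with both arrays lowest, averaged -0.67 and -1.65, against -0.29 to 0.09. Fibroblast and matrix markers, 10 of 13 with both arrays highest and 2 with both lowest, averaged 1.01 and 1.40, against -0.54 to 0.36. Luminal epithelial markers averaged 0.29 and 0.19, within the -0.49 to 0.42 of the others, and myeloid and endothelial markers were likewise within the range of the other arrays. Adipocyte markers were at -0.36 and -0.18, against -0.22 to 0.22, so that only AA 2 lay outside. The list mean of T and NK cell markers was above the others in both arrays, though in AA 2 only narrowly, at 0.53 beside 0.52 in KK 4. Its genes were divided, since 4 of 11 had both arrays highest and 2, CD4 and CD6, had both lowest. List means of myoepithelium were above the others in AA 9 only and those of B and plasma cells in AA 2 only. The erythroid mean was below the others in AA 9 only. Within the luminal list MUC1 was at -3.92 and -5.02 while KRT18 was at 2.32 and 2.98 and CDH1 at 2.49 and 1.85. The 3′ less the 5′ signal of actin and GAPDH control probes, each relative to its own baseline, was 0.60 and -0.44, against -0.32 to 0.34. A higher value means relatively more 3′ signal, so the 2 arrays lay outside the others on opposite sides. In tissue biopsies, fewer cells of a type and less RNA per cell cannot be told apart, and the part of tissue makeup in the values of the fatty acid genes was not tested.

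**Figure D1:**
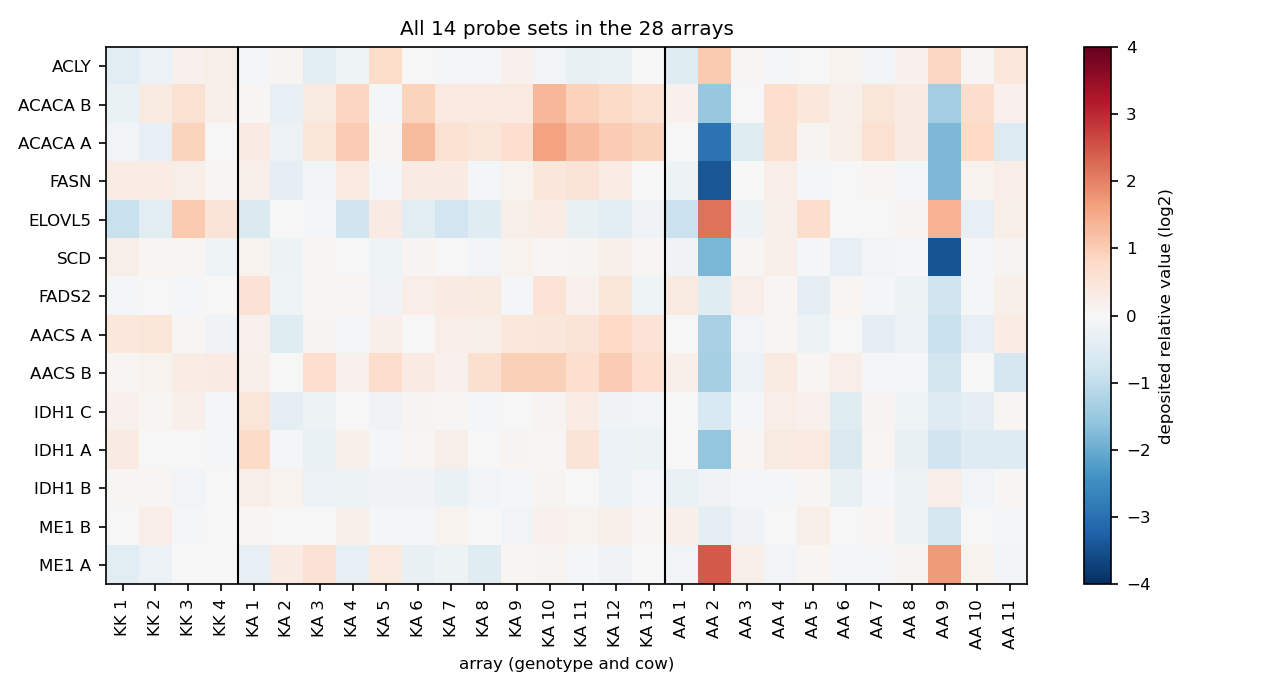
Deposited relative values (log2, colour) of the 14 probe sets (rows) in the 28 arrays (columns, KK, then KA, then AA, divided by lines). AA 2 and AA 9 carry the deepest colours, from -3.44 in SCD to 2.45 in ME1 A.

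No probe set of the array passed a Benjamini-Hochberg adjusted p of 0.05 in any of the 3 pairwise comparisons or in the slope per K allele (limma, 24016 tested, 0% called in each), and so none of the 14 did. At an unadjusted limma p under 0.05, 1 of 14 probe sets differed in KK minus AA and was higher in KK, where 3.51% of all probe sets differed and 2% were higher. In KA minus AA 7 of 14 did, 6 of them higher in KA, where 21.8% of all probe sets did and 10.8% were higher. In KK minus KA 0 of 14 did, against 2.84% of all and 1.44% higher, and in the slope 3 of 14 did, all positive, against 9.16% of all and 4.68% positive. Without AA 2 and AA 9 the numbers were 0 of 14 for KK minus AA (2.76% of all, 1.62% higher) and 3 for KA minus AA, all higher (9.5% of all, 5.2% higher). They were 2 for KK minus KA, both lower (6.08% of all, 3.09% higher), and 2 for the slope, both positive (3.26% of all, 1.71% positive), and again 0 probe sets of the array passed after adjustment. In KA minus AA, 525 probe sets passed when AA 1 was left out, 104 with array weights and 47 after quantile normalization, so the count of 0 depended on these choices.

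Over the 9 genes, with 1 probe set each, the median difference was 0.20 log2 for KK minus AA, 0.26 for KA minus AA, -0.01 for KK minus KA and 0.13 per K allele. The medians over all probe sets were 0.01, 0.02, -0.0015 and 0.01. Without AA 2 and AA 9 the medians of the 9 genes were 0.06, 0.08, -0.01 and 0.03. KK minus AA and KA minus AA share the AA cows, so the likeness of their values is not independent, and both medians were smaller without 2 of the 11 AA arrays.

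**Figure D2:**
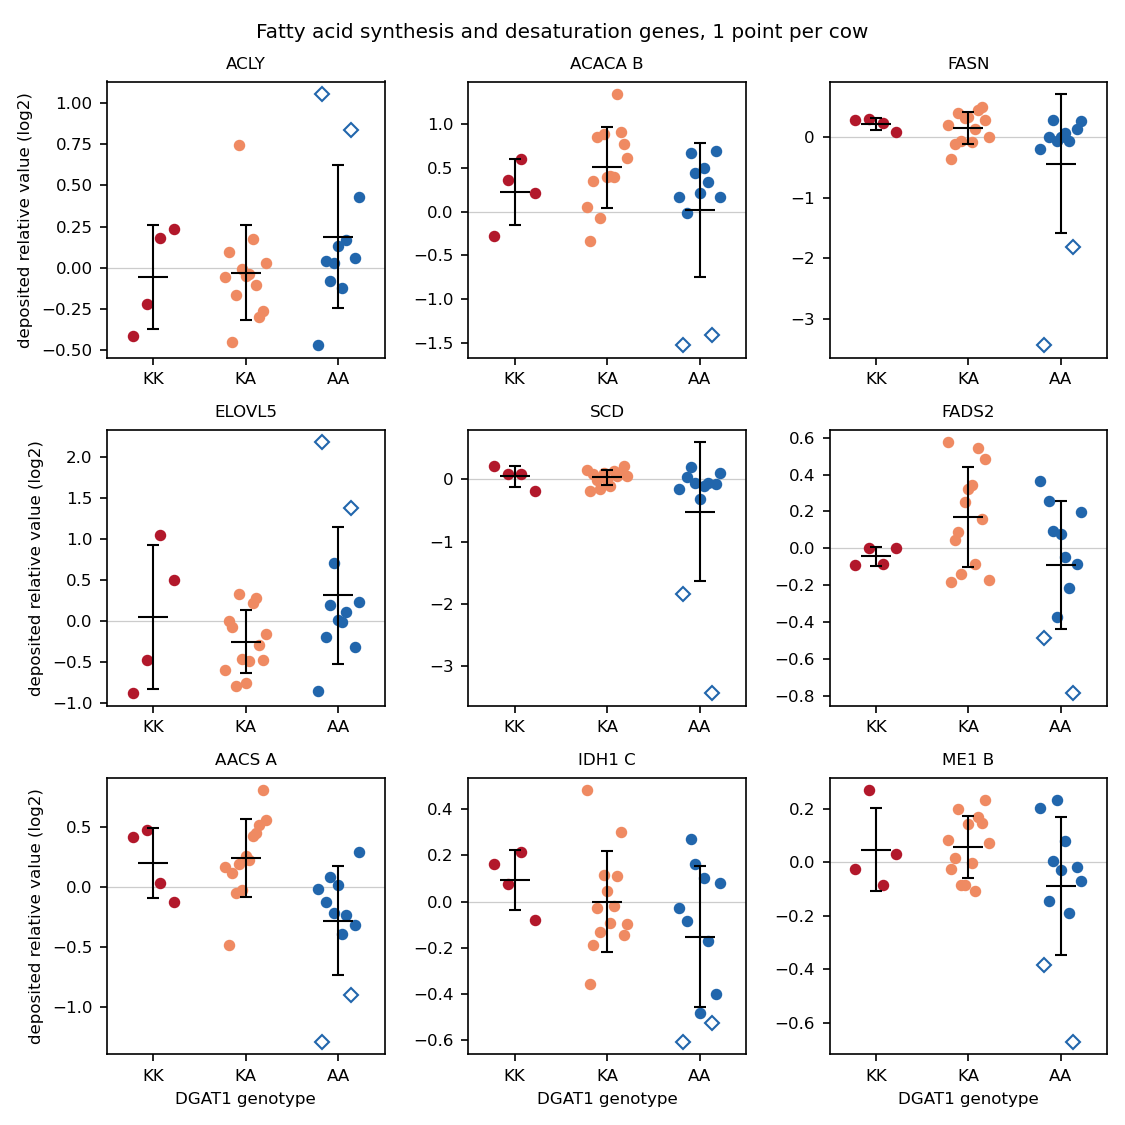
Deposited relative values (log2) of 1 probe set for each of the 9 genes by DGAT1 genotype, 1 point per cow, with the mean and SD as bars and a separate vertical scale in each panel. Open diamonds are AA 2 and AA 9, which lie outside the other 26 cows in all 9 panels.

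The enzymes that prepare acetyl units were ACLY and AACS. ACLY was at -0.42, -0.22, 0.18 and 0.24 in the 4 KK cows, between -0.45 and 0.75 with a median of -0.05 in KA cows, and between -0.47 and 1.06 with a median of 0.06 in AA cows. The groups overlapped over most of their range. The difference KK minus AA was -0.24 (SE 0.20) and KA minus AA -0.22 (SE 0.14), and without AA 2 and AA 9 they were -0.08 and -0.05. ACLY activity is known to be low in ruminant udder, where acetate and not citrate is the main source of acetyl units.

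AACS, the cytosolic synthetase that activates acetoacetate for lipid synthesis, gave the smallest p among the 14 probe sets, between KA and AA cows. Probe set AACS B was at 0.08, 0.13, 0.29 and 0.33 in KK cows. In KA cows it lay between 0.03 and 1.01 with a median of 0.66, and in AA cows between -1.32 and 0.35 with a median of -0.06. All 13 KA cows lay above the AA mean and 8 above the highest AA cow. KA averaged 0.55 ± 0.33 (SD, n = 13) and AA -0.20 ± 0.51 (SD, n = 11), a difference of 0.75 log2 (SE 0.16), or 1.68-fold. Only 10 of the 24016 probe sets had a smaller p, and it did not pass the adjustment (limma adjusted p = 0.0967). The permutation test of this single probe set, 1 of 42 run over 14 probe sets and 3 pairs of genotypes, gave a two-sided p of 0.00014.

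The difference in AACS B did not rest on AA 2 and AA 9 alone. Without them AA averaged -0.02 ± 0.31 (SD, n = 9), KA exceeded it by 0.57 (SE 0.13, limma adjusted p = 0.135), and the exact two-sided permutation p was 0.000627. It passed the adjustment after quantile normalization, at 0.67 (limma adjusted p = 0.0264), with array weights, at 0.58 (limma adjusted p = 0.0267), and without AA 1, at 0.79 (limma adjusted p = 0.0349). It did not pass with array number as a block, at 0.74 (limma adjusted p = 0.147), or with that block and without AA 2 and AA 9, at 0.52 (limma adjusted p = 0.288). Nor did it with the 3′ less 5′ control signal as a covariate, at 0.70 (limma adjusted p = 0.179). With the fibroblast and matrix list as a covariate it was 0.58 (limma adjusted p = 0.499). Over all settings run the limma adjusted p lay between 0.0264 and 0.499. Within numbers 43 to 56, KA exceeded AA by 1.10 (11 and 3 cows) and by 0.97 without AA 9, where AA 10 and AA 11 stood for AA. These 2 cows lay apart, AA 10 at -0.00072 and AA 11 at -0.68, the lowest of the 26 cows other than AA 2 and AA 9. Within numbers 29 to 42 KA minus AA was 0.22 (2 and 8 cows) and 0.04 without AA 2. Between KK and KA cows the difference was -0.34 (SE 0.22), and between KK and AA cows 0.41 (SE 0.22), so the highest values belonged to the heterozygous cows with the upper array numbers. For KA against AA, genotype and array number can be told apart only through the 2 KA arrays of the lower range and the 3 AA arrays of the upper range.

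**Figure D3:**
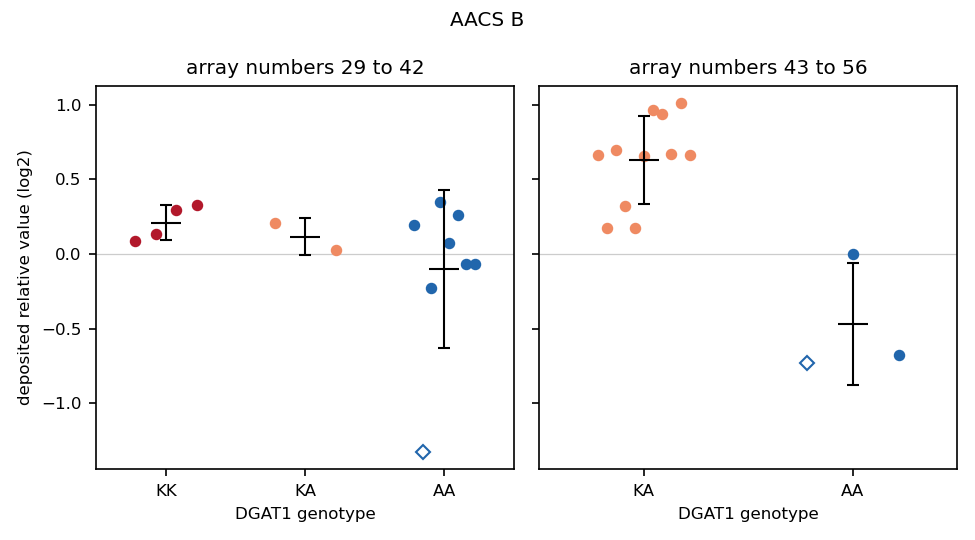
Deposited relative values (log2) of AACS B by genotype within array numbers 29 to 42 (left) and 43 to 56 (right), 1 point per cow, with mean and SD as bars and open diamonds for AA 2 and AA 9. KA lies 1.10 above AA on the right and 0.22 above AA on the left.

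The other AACS probe set, AACS A, was at 0.42, 0.48, 0.04 and -0.13 in KK cows. It lay between -0.48 and 0.81 with a median of 0.23 in KA cows, and between -1.29 and 0.30 with a median of -0.22 in AA cows. KK minus AA was 0.48 (SE 0.21, limma unadjusted p = 0.0312) and KA minus AA 0.53 (SE 0.15, limma adjusted p = 0.131), and without AA 2 and AA 9 these were 0.30 and 0.35. KA and KK lay close together here, whereas in AACS B KK lay between AA and KA. The 2 AACS probe sets correlated over the 26 other cows at r = 0.57 (rho = 0.62, permutation p = 0.00211, adjusted over 6 same-gene pairs 0.00422). Both had positive slopes per K allele, 0.31 (SE 0.10) and 0.34 (SE 0.12), and these were 2 of the 3 slopes with an unadjusted limma p under 0.05. They were 0.19 and 0.21 without AA 2 and AA 9. KA minus AA of AACS A was 0.11 within numbers 29 to 42 and 0.62 within 43 to 56, and -0.03 and 0.33 without AA 2 and AA 9.

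ACACA varied widely between cows even without AA 2 and AA 9. The SD of ACACA A over the 26 cows was 0.56, above that of 97.9% of probe sets, and the SD of ACACA B was 0.38, above 91.9%. The median probe set had an SD of 0.20. The 2 probe sets correlated at r = 0.87 over these cows (rho = 0.89, permutation p = 1e-05, the smallest the 100000 resamples can give), and at 0.70 and 0.90 within the lower and upper array numbers. Both probe sets therefore ordered the cows in nearly the same way.

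ACACA B was at -0.28, 0.36, 0.60 and 0.21 in KK cows, between -0.34 and 1.34 with a median of 0.40 in KA cows, and between -1.52 and 0.69 with a median of 0.21 in AA cows. KA 10 was highest, and the lowest cows besides AA 2 and AA 9 were KA 2 and KK 1. KA exceeded AA by 0.48 (SE 0.23, limma adjusted p = 0.221), and by 0.15 without AA 2 and AA 9. ACACA A was at -0.11, -0.33, 0.90 and 0.03 in KK cows, between -0.23 and 1.60 with a median of 0.66 in KA cows, and between -2.97 and 0.80 with a median of 0.09 in AA cows. KA exceeded AA by 1.01 (SE 0.32, limma adjusted p = 0.139), or 2.01-fold, and by 0.54 (SE 0.20, exact permutation p = 0.0213) without AA 2 and AA 9. Within numbers 43 to 56 that difference was 1.37, and 0.72 without AA 9, and within 29 to 42 it was 0.24, and -0.15 without AA 2. KK minus AA, 0.20 and 0.41 in the 2 probe sets, was -0.13 and -0.06 without AA 2 and AA 9.

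FASN, the multifunctional synthase that carries all steps of chain growth, was at 0.29, 0.30, 0.23 and 0.08 in KK cows, between -0.36 and 0.51 with a median of 0.20 in KA cows, and between -3.43 and 0.28 in AA cows. KK averaged 0.23 ± 0.10 (SD, n = 4), KA 0.16 ± 0.26 (SD, n = 13) and AA -0.43 ± 1.15 (SD, n = 11). All 4 KK cows lay above the AA mean, and 2 of 4 lay above the highest AA cow. KK exceeded AA by 0.66 (SE 0.41), or 1.58-fold, with an exact two-sided permutation p of 0.0352 and a limma adjusted p of 0.909. Without AA 2 and AA 9 the AA mean was 0.05 ± 0.16 (SD, n = 9), the difference 0.17 (SE 0.13), and the exact permutation p 0.0671. All KK arrays carried numbers 29 to 42, and within that range KK exceeded AA by 0.65, and by 0.22 without AA 2. KA minus AA was 0.59 (SE 0.29) with all arrays and 0.11 (SE 0.09) without AA 2 and AA 9, and -0.09 and -0.01 within the lower and upper numbers without those arrays.

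ELOVL5, which elongates polyunsaturated chains of 18 and 20 carbons, did not follow FASN. It was at -0.88, -0.47, 1.06 and 0.50 in KK cows, so that this group alone spanned the range of the 26 cows other than AA 2 and AA 9. It lay between -0.79 and 0.34 with a median of -0.29 in KA cows, and between -0.85 and 2.19 with a median of 0.11 in AA cows. KA minus AA was -0.56 (SE 0.26, limma adjusted p = 0.211) and -0.24 without AA 2 and AA 9. Between KK and AA the difference was -0.26 (SE 0.37). It was 0.06 without those arrays, and leaving out single cows moved it between -0.60 without KK 3 and 0.046 without KK 1. Its SD over the 26 cows was 0.49, above 96.7% of probe sets.

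SCD and FADS2 place double bonds, SCD in saturated chains and FADS2 in polyunsaturated ones. SCD was at 0.22, 0.09, 0.09 and -0.18 in KK cows, between -0.19 and 0.21 with a median of 0.06 in KA cows, and between -3.44 and 0.19 with a median of -0.07 in AA cows. Without AA 2 and AA 9 its SD over cows was 0.14, above that of only 12.8% of probe sets, whereas with them the SD was 0.74. KK minus AA was 0.57 (SE 0.39) and KA minus AA 0.55 (SE 0.28), and without AA 2 and AA 9 they were 0.10 (SE 0.09, 95% interval -0.08 to 0.28) and 0.08 (SE 0.06, 95% interval -0.05 to 0.21). Among these 26 cows differences in SCD between genotypes beyond 0.28 log2 thus lay outside the interval of each comparison with AA.

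FADS2, the delta-6 desaturase, was between -0.09 and 0.00026 in the 4 KK cows. It lay between -0.18 and 0.58 with a median of 0.16 in KA cows, and between -0.79 and 0.36 with a median of -0.05 in AA cows. KA minus AA was 0.26 (SE 0.12, limma adjusted p = 0.203) and 0.14 without AA 2 and AA 9. KK exceeded AA by 0.05 (SE 0.17), and the difference was -0.07 without those arrays and -0.022 without AA 9 alone. FADS1, the delta-5 desaturase that acts after ELOVL5, was not analysed here.

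IDH1, the cytosolic isocitrate dehydrogenase, had 3 probe sets. IDH1 C was at 0.16, 0.08, 0.22 and -0.08 in KK cows, between -0.36 and 0.48 with a median of -0.03 in KA cows, and between -0.61 and 0.27 with a median of -0.08 in AA cows. KK minus AA was 0.25 (SE 0.14) and KA minus AA 0.15 (SE 0.10), and 0.15 and 0.06 without AA 2 and AA 9. IDH1 A gave 0.37 (SE 0.23) for KK minus AA and 0.39 (SE 0.16, limma adjusted p = 0.193) for KA minus AA, and 0.18 and 0.20 without those arrays. Within the lower and upper array numbers KA minus AA of IDH1 A was 0.53 and 0.65, and 0.34 and 0.56 without AA 2 and AA 9. The lower range held only 2 KA cows, KA 1 at 0.75 and KA 2 at -0.07. The upper range held 3 AA cows, or 2 without AA 9. IDH1 B differed by 0.08 (SE 0.10) and -0.0059 (SE 0.07) and ranged only from -0.31 to 0.27. Its KA minus AA had opposite signs in the lower and upper array numbers, at 0.30 and -0.19. Over the 26 cows IDH1 A and IDH1 C correlated at r = 0.80 (rho = 0.79), and IDH1 B with them at 0.46 (rho = 0.40) and 0.50 (rho = 0.50). The correlation of 0.46 was -0.02 within the upper array numbers.

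ME1, the cytosolic malic enzyme, gave opposite results in its 2 probe sets. ME1 B was at -0.02, 0.27, -0.09 and 0.03 in KK cows, between -0.11 and 0.23 with a median of 0.07 in KA cows, and between -0.67 and 0.23 with a median of -0.03 in AA cows, where AA 2 was at -0.38 and AA 9 at -0.67. ME1 A was at -0.42, -0.23, 0.02 and 0.0043 in KK cows, between -0.48 and 0.56 with a median of -0.05 in KA cows, and between -0.11 and 2.45 with a median of 0.06 in AA cows, where AA 2 was at 2.45 and AA 9 at 1.71. The difference KK minus AA was 0.14 (SE 0.11) in ME1 B and -0.55 (SE 0.33) in ME1 A. The 2 correlated at r = -0.30 over the other 26 cows (rho = -0.36, permutation p = 0.138, adjusted 0.138). No direction is given for the gene, since the probe sets disagree.

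**Figure D4:**
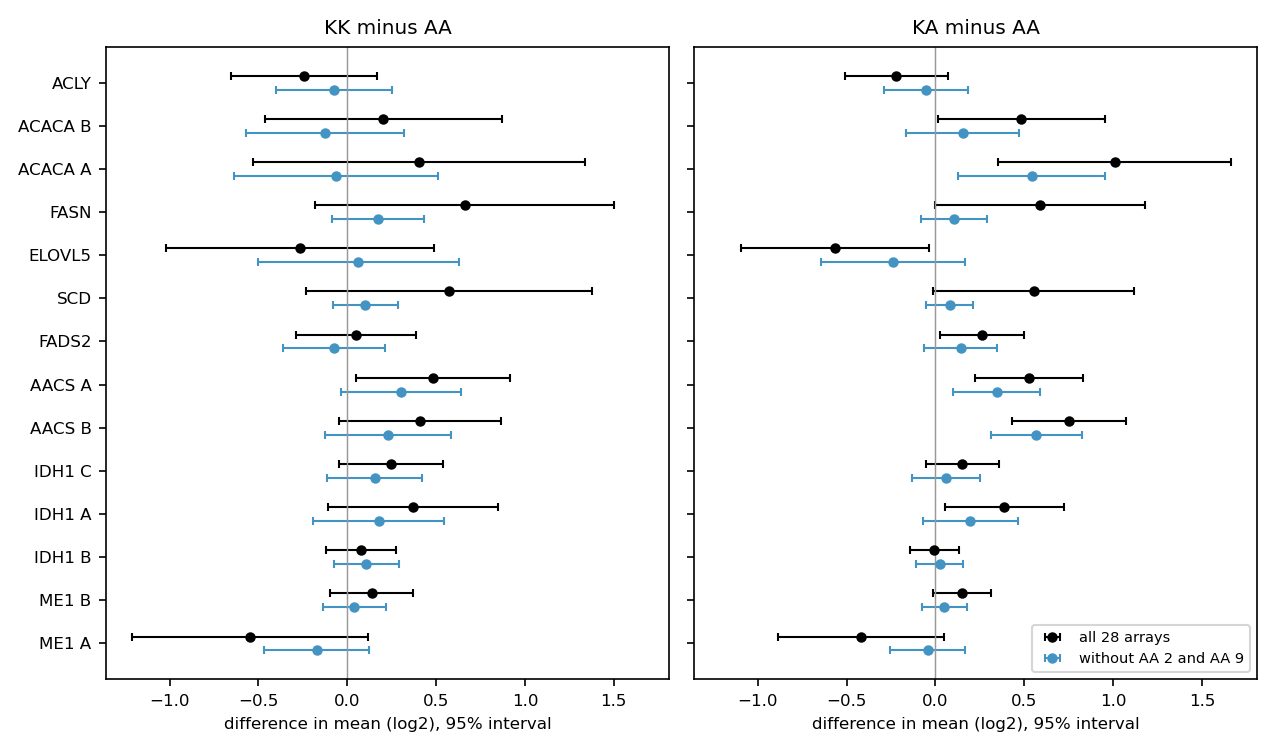
Differences in mean (log2, points) with 95% intervals from limma for KK minus AA (left) and KA minus AA (right) in the 14 probe sets, with all 28 arrays (black) and without AA 2 and AA 9 (blue). Without these arrays the FASN difference between KK and AA is 0.17 in place of 0.66, and the AACS B difference between KA and AA is 0.57 in place of 0.75.

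KK and KA cows differed by 0.30 log2 or less in 12 of the 14 probe sets. The exceptions were AACS B, at -0.34, and ACACA A, at -0.60 (SE 0.45, exact permutation p = 0.0588). In the fit without AA 2 and AA 9, these were the 2 probe sets with an unadjusted limma p under 0.05, at 0.0487 and 0.0314 (limma adjusted p = 0.817 and 0.787). Since 11 of 13 KA arrays and 0 KK arrays carried numbers 43 to 56, KK and KA could be compared at matched array numbers only with KA 1 and KA 2.

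Relations between the genes were described over the 26 cows without AA 2 and AA 9, since with those 2 arrays included 13053 of 24015 probe sets correlated with FASN past the adjustment. FASN and SCD correlated across cows at r = 0.62 (rho = 0.60, permutation p = 6e-04, adjusted over 24015 probe sets 0.139). The correlation was 0.74 and 0.43 within the lower and upper array numbers (13 cows each), 0.59 after the genotype means had been subtracted, and 0.57 without the 2 cows farthest from the FASN median, KA 2 and KA 11. FASN correlated with ACACA at 0.61 in ACACA B (rho = 0.57) and 0.51 in ACACA A (rho = 0.50), with IDH1 C at 0.56 (rho = 0.55) and with AACS A at 0.53 (rho = 0.46). It correlated with FADS2 at 0.39, with ACLY at -0.19, with ELOVL5 at -0.17 and with ME1 A at -0.49. None of the 13 other probe sets passed the adjustment over the array, where 8 of 24015 (0.0333%) did. The median r of the 8 other genes with FASN was 0.46, against 0.03 over all probe sets.

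SCD correlated with IDH1 C at 0.63 (rho = 0.59) and with AACS A at 0.60 (rho = 0.61). Its r with ACACA was 0.28 and 0.27, and its r with ELOVL5 was -0.17. None passed the adjustment (smallest adjusted permutation p = 0.153 among the members), and of 24015 probe sets 0 did (0%), with 2578 at an unadjusted permutation p under 0.05. The median r of the 8 other genes with SCD was 0.27, against 0.04 over all probe sets.

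**Figure D5:**
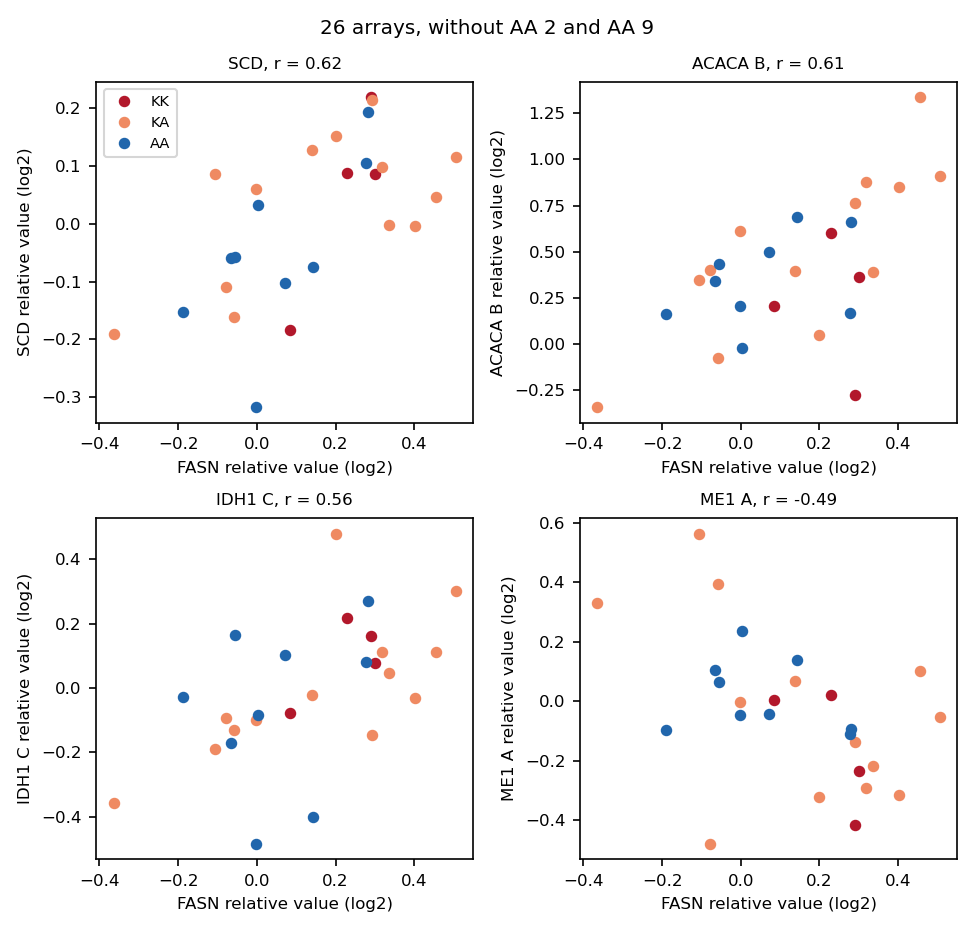
FASN (horizontal) against SCD, ACACA B, IDH1 C and ME1 A (vertical) in deposited relative values (log2) over 26 cows, coloured by genotype. The correlations are 0.62, 0.61, 0.56 and -0.49. ME1 B is not shown, and no direction is given for the gene ME1.

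The 6 genes with the highest r with FASN over these cows were TMEM125, a membrane protein, ECM1, an extracellular matrix protein, MUC1, an apical mucin of secretory epithelium and of the milk fat globule membrane, GFUS, which makes GDP-fucose, FABP3, the fatty acid binding protein abundant in lactating mammary tissue, and ACO1, the cytosolic aconitase that precedes IDH1 in citrate use. Their r was 0.78, 0.78, 0.77, 0.76, 0.75 and 0.73, and the first 4 had an adjusted permutation p of 0.03. Of the 8 probe sets past the adjustment 7 were positive (0.0291%) and 1 negative (0.00416%). The number was 5 with genotype means subtracted, and 0 with the means of the number ranges subtracted or without KA 2 and KA 11. These counts depend in part on the number of resamples. The smallest p the resamples can give is 1e-05, and several probe sets must reach it together before any passes. In AA 2 and AA 9, MUC1 was at -3.92 and -5.02 and FABP3 at -3.34 and -4.83, whereas ECM1 was at 0.82 and 1.39, so the genes that tracked FASN among the other cows did not all share its values in those arrays.

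The 6 genes with the highest r with SCD were LSS, the lanosterol synthase of cholesterol synthesis, THBS1, a secreted matrix glycoprotein, TOM1L1, ANXA5, a phospholipid binding protein, FDX2, a mitochondrial ferredoxin, and BTN1A1, the butyrophilin of the milk fat globule membrane. Their r was 0.76, 0.74, 0.73, 0.72, 0.72 and 0.71. The first 5 had an adjusted permutation p of 0.0961, and BTN1A1 0.143. The unadjusted permutation p of LSS and THBS1 was 1e-05, the smallest the resamples can give.

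Other genes of the pathway gave no probe set past the adjustment either. Of 26 further genes of synthesis, elongation and desaturation, 18 were measured and 12 had a positive slope per K allele, with a median of 0.04. Over all probe sets 54.0% of slopes were positive, and 53.3% without AA 2 and AA 9, where 12 of the 18 were positive with a median of 0.02. The slopes with the smallest p were those of ACSS1 and ACSS2, which activate acetate in mitochondria and cytosol, at 0.40 (SE 0.15) and 0.60 (SE 0.24), TECR, the enoyl reductase of elongation, at 0.40 (SE 0.16), and MECR, its mitochondrial counterpart, at 0.16 (SE 0.07). They were, without AA 2 and AA 9, 0.20 for ACSS1, 0.21 for ACSS2 and 0.19 for TECR. ACSS2 was at -3.50 in AA 2 and -3.40 in AA 9, with the remaining cows between -0.47 and 0.89. TECR was at -2.95 and -0.65, against -0.26 to 0.80. Both genes were named for their slope p in the fit with AA 2 and AA 9, so these values are not independent of that choice. Over the whole list, 5 of 18 genes had both arrays lowest and 1 had both highest.

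Of 11 further genes of NADPH supply 10 were measured and 7 had a positive slope, with a median of 0.08, beside the 54.0% of all probe sets. Among the other 26 cows 5 of the 10 were positive and the median was 0.01. Those with the smallest p were MTHFD1, a folate enzyme, at 0.10 (SE 0.05), PGLS, of the pentose phosphate pathway, at 0.07 (SE 0.05), ME2, a mitochondrial malic enzyme, at -0.17 (SE 0.14), and NNT, the mitochondrial transhydrogenase, at -0.12 (SE 0.10). This list averaged 0.02 in AA 2 and -0.07 in AA 9, within the -0.18 to 0.25 of the other cows. That mean covers genes in both directions, since ME2 was at 1.42 and 0.68 and NNT at 1.10 and 0.40, while both arrays were lowest for 2 of the 10 genes.

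Of 27 regulators 25 were measured and 22 had a positive slope, with a median of 0.05, beside the 54.0% of all probe sets. INSIG1, which retains the SREBP activating complex in the endoplasmic reticulum and is itself an SREBP target, had a slope of 0.54 (SE 0.20), and SREBF1, the gene of the transcription factor that drives lipogenic genes, 0.35 (SE 0.13). MBTPS1, the protease that makes the first cut in SREBP, was at -0.16 (SE 0.08) and PPARGC1A, a transcriptional coactivator, at 0.30 (SE 0.16). Among the 26 other cows INSIG1 was at 0.27 and SREBF1 at 0.18, and 16 of 25 slopes were positive with a median of 0.03, beside 53.3% of all probe sets. In AA 2 and AA 9, INSIG1 was at -1.95 and -2.84, SREBF1 at -1.16 and -1.38 and MBTPS1 at 1.03 and 0.76, outside the range of the other cows in each case. These genes were named for their slope p in the fit with AA 2 and AA 9, so their values in those arrays are not independent of that choice. Over the whole list, 10 of 25 genes had both arrays lowest and 2 had both highest.

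None of the 13 fibroblast and matrix markers passed the adjustment in limma, and 6 of 13 had an unadjusted p under 0.05 for KK minus AA, all lower in KK, beside 3.51% of all probe sets. Leaving out AA 2 and AA 9, it was 2 of 13, beside 2.76%, and the list's median of KK minus AA was -0.34 in place of -0.64. The list's mean was -0.27 in KK cows (-0.46 to -0.05), -0.07 in KA cows (-0.39 to 0.17) and 0.05 in the 9 AA cows other than AA 2 and AA 9 (-0.54 to 0.36), so that the groups overlapped. With this list's mean as a covariate the median of KK minus AA over the 9 genes was -0.07 in place of 0.20, and FASN was at -0.12 and SCD at -0.27. Milk protein genes averaged 0.01 in KK, 0.01 in KA and -0.0044 in those 9 AA cows. Single cows among these 26 lay between -0.29 in AA 6 and 0.09 in AA 4, and differences between the list's group means were not tested. That covariate was itself highest in AA 2 and AA 9, at 1.01 and 1.40, and leaving out these arrays alone gave a median of 0.06. The part of tissue makeup in the differences between genotypes was not tested.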

How the data were processed

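The deposited values were log2 expression values of 24128 probe sets in 28 arrays, each expressed relative to a baseline of its own probe set. The submitters' processing notes name GCRMA and RMA, Bioconductor 2.7 and R 2.13. Which method made these values, and how the baseline was set, is not stated in the sources used here. Scanner files and detection calls were not used here, so signal over background is unknown beyond the lower bounds read from the rounding of the deposited values. After 112 control probe sets were left out, 24016 were tested, of which 13292 carried 1 gene symbol, 86 several and 10638 none in the platform annotation.

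Genotype was a factor in a linear model of all 28 arrays (limma 3.58.1, R 4.3.3). P-values were adjusted by Benjamini-Hochberg across the 24016 probe sets, and 0.05 was the threshold. The slope per K allele came from a second fit. Single probe sets were also compared by two-sided permutation tests, exact where either group had fewer than 10 cows and with 100000 resamples otherwise, and their p-values are not adjusted. Correlations were Pearson and Spearman with 100000 permutations, adjusted over 24015 probe sets. A single probe set at the smallest p these permutations can give does not pass the adjustment, so a count of 0 is partly set by their number. The scripts were tested on simulated data. Each array is a separate cow, and precision is limited by how many arrays there are.

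All probe sets of the members were named. Of the other pathway lists up to 4 genes with the smallest slope p were named, of each correlation the 6 genes with the highest r, and of a cell type list at most 3 genes with the largest range. For a gene with several probe sets, the one in the highest class of lower level bound was used, then the plainest probe set type, then the first identifier; this does not rank their levels. Members and lists were chosen with earlier results of these data known.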

Additional observations from a re-analysis of the deposited data

How the results depend on the processing

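No paired analysis was possible because the labels give the genotypes no shared replicate numbers. The cause of each change below was not tested unless stated. The count of probe sets past the adjustment in KA minus AA, 0 as reported, was 12 at an adjusted p of 0.10, 47 after quantile normalization, 5 among the more variable probe sets, 104 with array weights and 1 with array number as a block and AA 2 and AA 9 left out, a setting chosen after seeing the data. It lay between 0 and 525 when single arrays were left out, with 525 without AA 1, 5 without KK 3 or KA 5, and 1 without AA 7 or KA 9. In KK minus KA it was 3 with array weights and 47 with the fibroblast list as a covariate, which also brought the median of KK minus AA over the 9 genes to -0.073. The number of probe sets correlated with FASN, 8 as reported, was 13053 over 28 arrays, 5 with genotype means subtracted, 27 at an adjusted p of 0.10, and 0 with range means subtracted or without the 2 farthest arrays. For SCD it was 11580 over 28 arrays and 5 at an adjusted p of 0.10.

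Signs reversed as follows. Without AA 2 and AA 9, KK minus AA was -0.061 for ACACA A, -0.13 for ACACA B, 0.062 for ELOVL5 and -0.073 for FADS2, and KA minus AA was 0.024 for IDH1 B. That IDH1 value was 0.0072 with the array number block, 0.0031 with array weights, 0.0046 after quantile normalization and 0.046 with the fibroblast covariate. With the block and without AA 2 and AA 9, KK minus AA was -0.026 for ACACA B, 0.064 for ELOVL5 and -0.073 for FADS2, and KA minus AA was -0.13 for ACACA B, -0.047 for FASN and 0.10 for IDH1 B. With array weights, KK minus AA was -0.17 for ACACA A, -0.070 for ACACA B and -0.030 for FADS2, which was -0.035 after quantile normalization. With the fibroblast covariate, KK minus AA was -0.33 and -0.35 for the ACACA probe sets, 0.16 for ACLY, 0.54 for ELOVL5, -0.26 for FADS2, -0.12 for FASN, 0.16 for ME1 A, -0.073 for ME1 B and -0.27 for SCD. KA minus AA was 0.035 for ACLY and 0.027 for ME1 A, and the slope of ACACA A was -0.017. The r of AACS B with FASN was -0.020 with range means subtracted, and that of IDH1 B was -0.078 with FASN and -0.28 with SCD over 28 arrays. Leaving out single arrays moved KK minus AA of ELOVL5 between -0.60 (without KK 3) and 0.046 (without KK 1), that of FADS2 between -0.022 (without AA 9) and 0.093, and KA minus AA of IDH1 B between -0.031 and 0.028. Of the other values, 384 kept their direction and side of the threshold. With 4 KK cows, the intervals of KK minus AA span more than the estimates.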
